A study of Homo sapiens with 6 samples.

Results

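Immediate early genes are genes whose transcripts appear within minutes of a stimulus without new protein synthesis, and 8 of them that encode no subunit of the AP-1 transcription factor were followed in A549 cells with and without overexpression of APEX1. The genes were EGR1, IER2, IER3, NR4A1, KLF4, KLF6, KLF10 and MYC, taken by their symbols from a list drawn up when earlier results of these data were known. All 8 were found among the 32192 genes of the count table and the 31951 genes of the FPKM table, and all 8 passed the filter on low counts that left 16971 genes for testing. A549 is an established human lung adenocarcinoma cell line. APEX1 is the apurinic-apyrimidinic endonuclease of base excision repair, which is also known as a redox regulator of transcription factors. In the APEX1-OE group, 3 libraries came from A549 cells transiently transfected with the pIRES-hrGFP-1a vector carrying APEX1 with a FLAG tag at its 3′ end. In the Ctrl group, 3 libraries came from A549 cells transfected with the control plasmid. Both groups therefore share the transfection, and neither the hour of RNA harvest nor whether the replicates were separate cultures is given, so the p-values measure only the spread between these libraries. The comparison asked whether the transcript levels of these genes differed between APEX1-OE and Ctrl.

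Most genes of this class are switched on by growth factors, stress or serum through the ERK cascade and the serum response factor SRF, which binds CArG boxes in their promoters together with ETS proteins such as ELK1. Their mRNAs carry AU-rich elements and are short-lived, so that their levels in unstimulated cells are usually low and move quickly. EGR1 is the classical zinc finger member, IER2 and IER3 are small nuclear and stress-related proteins, NR4A1 is an orphan nuclear receptor, KLF4, KLF6 and KLF10 are Krüppel-like zinc finger factors, and MYC drives cell growth and proliferation.

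The promoters of EGR1 and KLF4 are shown here because these were the only members whose 3 APEX1-OE libraries all lay above the 3 Ctrl libraries. Both sequences are the 250 bases before the RefSeq transcription start in GRCh38.p14. That of EGR1 is on the plus strand at chr5:138465229-138465478, with its CArG boxes in capitals. That of KLF4 is on the minus strand at chr9:107489770-107490019, with the TGACG cores of cAMP response elements, read on the other strand as CGTCA, in capitals. The KLF4 stretch lies inside the gene as GENCODE places it (chr9:107484852-107490482), so its positions hold for the RefSeq start only.
EGR1 promoter: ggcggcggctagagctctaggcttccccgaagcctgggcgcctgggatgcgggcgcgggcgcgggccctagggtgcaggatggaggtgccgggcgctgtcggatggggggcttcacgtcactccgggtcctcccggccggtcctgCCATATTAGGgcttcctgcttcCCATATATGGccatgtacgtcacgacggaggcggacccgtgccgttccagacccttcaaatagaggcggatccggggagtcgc
KLF4 promoter: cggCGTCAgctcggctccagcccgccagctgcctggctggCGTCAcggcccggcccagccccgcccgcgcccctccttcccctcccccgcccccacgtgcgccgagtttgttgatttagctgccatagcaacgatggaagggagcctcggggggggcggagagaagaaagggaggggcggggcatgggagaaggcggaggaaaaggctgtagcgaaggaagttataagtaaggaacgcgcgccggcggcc
The capitals in EGR1 are CCATATTAGG and CCATATATGG, whose first bases lie 105 and 83 bases before the start. In KLF4 they begin 247 and 210 bases before the start. Promoter entries, which ran from 250 bases before the start to 50 after it, were at hand for 5 of the 8 members, EGR1, IER2, NR4A1, KLF4 and KLF6, with 6 entries among them. Of these entries only that of EGR1 held a CArG box on either strand, compared with 1.29% of all 35116 promoters of the same length. The TGACG core was found 2 times in EGR1, 2 times in KLF4 and 1 time in IER2, and 24.6% of all promoters held it. The ETS core GGAAG, present in 71.9% of all promoters, was found in each of the 6 entries. The KLF core CACCC (59.9% of all promoters) was found in EGR1, IER2 and both entries of NR4A1, and not in KLF4 or KLF6. None of the 6 entries held TGACGTCA, which contains the TGACG core, the EGR site GCGTGGGCG or the TATA box TATAAA, which 1.85%, 0.795% and 11.5% of all promoters held. These matches are letters in the reference sequence and do not show binding.

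Each library held 28131955 to 41009197 counts. The FPKM of APEX1 was 618 to 768 in APEX1-OE and 124 to 129 in Ctrl, the direction that the labels give. KRT8 and KRT18 (2011 to 3562 FPKM) and the A549 enzymes ALDH1A1, AKR1B10 and AKR1C1 (108 to 1957 FPKM) were high. Of the other epithelial markers, KRT19 stood at 67.4 to 106 FPKM, CDH1 at 4.52 to 10.7 and EPCAM at only 0.18 to 0.52, below 1 in every library. In contrast to the keratins, SFTPB, SFTPC and NKX2-1 of alveolar type II cells were at or below 0.13 FPKM in every library. Of the fibroblast, leukocyte and endothelial markers, 7 of 9 had a value and 6 of those stayed below 1 FPKM in all libraries, the exception being CD68 at 1.00 to 1.49. Beside the condition, the libraries separated along an axis that no label names. The first principal component of log2 CPM (counts scaled to the normalized library size) carried 72.6% of the variance and put APEX1-OE 1, Ctrl 1 and Ctrl 2 on one side, here called cluster A, and APEX1-OE 2, APEX1-OE 3 and Ctrl 3 on the other, cluster B. These clusters were read from the data and are not groups of the study. On this axis APEX1-OE 1 also stood apart within cluster A, at 58.5 against 32.7 and 31.1 for Ctrl 1 and Ctrl 2.

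The members spanned a wide range of levels. On the FPKM scale (fragments scaled to transcript length and to the mapped fragments of the library), which allows genes to be compared, the Ctrl means ran from 2.07 for EGR1 to 68.2 for IER3, or from the 21.1st to the 93.0th percentile of the 11629 genes with a mean FPKM of at least 1. In descending order they were IER3, MYC, IER2, KLF10, NR4A1, KLF6, KLF4 and EGR1. The ranges of the 3 Ctrl libraries overlapped between the neighbours IER3 and MYC and between NR4A1 and KLF6, and did not overlap between the other neighbours. In APEX1-OE the order of the means differed only at NR4A1 and KLF6, which changed places, and the ranges of KLF4 and EGR1 then overlapped.

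**Figure D1:**
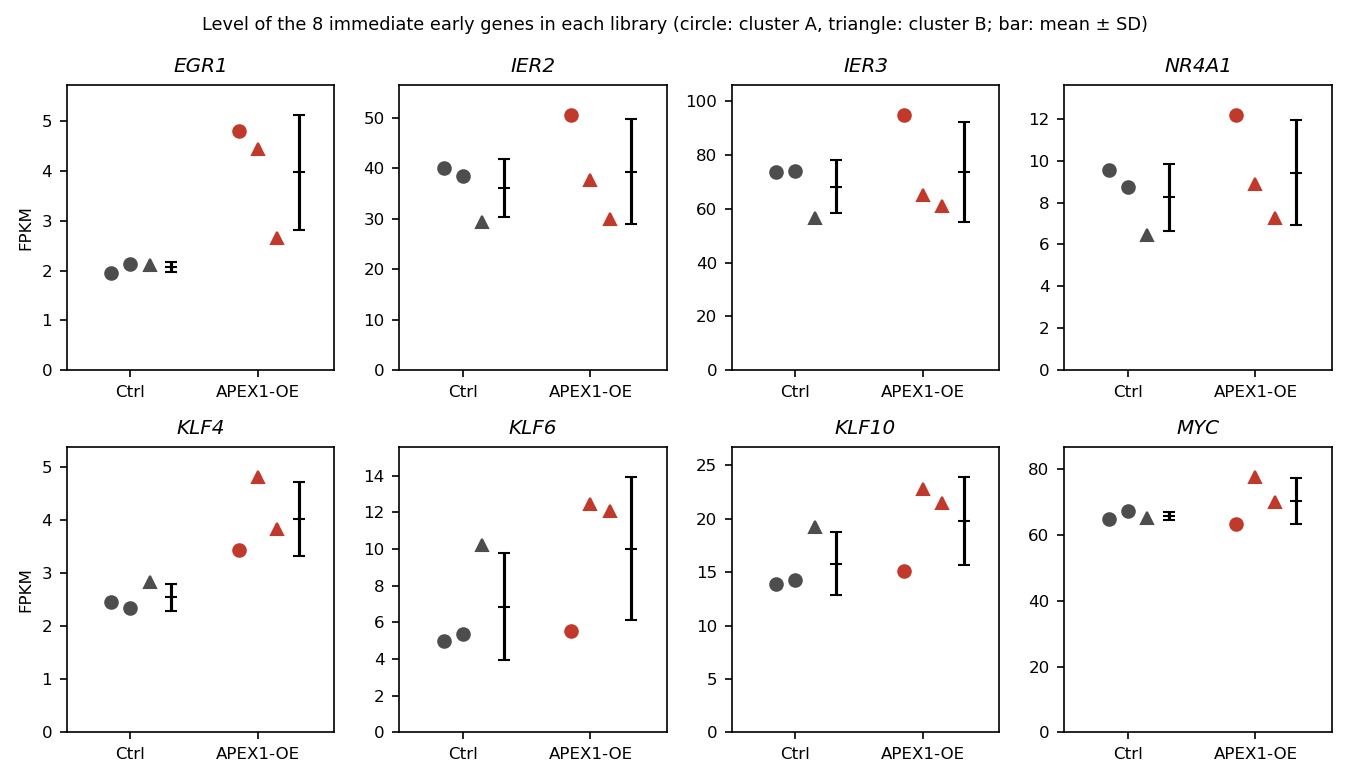
FPKM of each of the 8 genes (y axis, linear from 0) in the 3 Ctrl and 3 APEX1-OE libraries (x axis), with circles for cluster A, triangles for cluster B and bars for the mean ± SD. EGR1 and KLF4 are the genes whose groups do not overlap, with APEX1-OE at 2.66 to 4.81 against 1.95 to 2.14 for EGR1 and at 3.44 to 4.80 against 2.34 to 2.83 for KLF4.

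None of the 8 genes was called in APEX1-OE against Ctrl, where called means an adjusted p under 0.05 in edgeR's quasi-likelihood test over all genes. Of all tested genes 0.00589% were called, which is APEX1 alone (log2 fold change 2.42, SE 0.171, adjusted p = 0.00809 from edgeR). All 8 members had a log2 fold change above 0, also under the other normalizations, with a median of 0.25, whereas 57.5% of all tested genes were above 0, with a median of 0.033. At an unadjusted p under 0.05 and higher in APEX1-OE stood 2 members, EGR1 and KLF4, and 0.395% of all tested genes. The same 2 members passed that threshold in DESeq2, with 0.301% of all genes, and in limma-voom, with 0.383%. They also passed it in limma on log2(FPKM + 1), with 0.189%. No member was called by any of these tests, each of which called 1 gene, APEX1 (0.0086% of all genes for limma on log2(FPKM + 1)). In these bulk libraries, more cells with the transcript and more transcript per cell cannot be told apart.

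**Figure D2:**
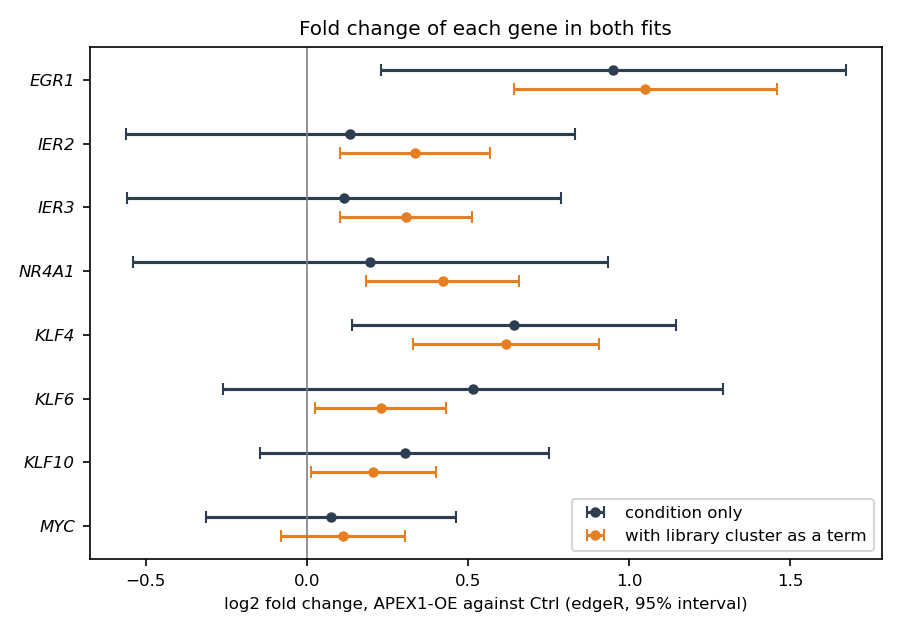
Log2 fold change of each gene in APEX1-OE against Ctrl from edgeR (x axis), with the 95% interval, for the fit with the condition only and for the fit with the library cluster as a term. In the first fit the intervals of EGR1 (0.23 to 1.67) and KLF4 (0.14 to 1.15) lie above 0 and the other 6 include 0, and in the second only that of MYC (-0.081 to 0.31) includes 0.

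EGR1 had the largest log2 fold change of the 8 in the fit with all 6 libraries, although without APEX1-OE 1 that of KLF6 was larger (0.74 against 0.67). EGR1 (ENSG00000120738.7) encodes a zinc finger transcription factor that binds GC-rich sites in growth and stress response genes. The gene occupies chr5:138465479-138469303 on the plus strand of GRCh38, with 2 exons and 3137 exonic bases. Its FPKM was 4.81, 4.44 and 2.66 in APEX1-OE 1, 2 and 3, and 1.95, 2.14 and 2.12 in Ctrl 1, 2 and 3. Every APEX1-OE library was above every Ctrl library, although APEX1-OE 3 stood nearer to the Ctrl libraries than to the other two. APEX1-OE averaged 3.97 ± 1.15 FPKM and Ctrl 2.07 ± 0.104 FPKM (SD, n = 3 each), a ratio of 1.92, with p = 0.1 in the exact two-sided permutation test, the smallest that 3 libraries against 3 allow. Groups that do not overlap in this direction were found for 1.38% of all tested genes on the log2 CPM scale. In counts EGR1 ran from 352 to 691 in APEX1-OE and from 208 to 301 in Ctrl. After normalization this corresponded to 20.8, 16.3 and 9.46 CPM against 7.73, 8.65 and 7.66 CPM. The coefficient of variation was 36.9% in APEX1-OE and 6.86% in Ctrl, and counting error alone at the lowest count gives 6.93%. The spread in Ctrl was thus close to the counting error at that lowest count, which is larger than at the other counts. The spread in APEX1-OE was wider. The edgeR log2 fold change was 0.95 (SE 0.312, unadjusted p = 0.0161, adjusted p = 1.00). With a library left out it lay between 0.67, without APEX1-OE 1, and 1.21, without APEX1-OE 3, and the unadjusted p from edgeR was above 0.05 only without Ctrl 1, at 0.0544.

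The Krüppel-like factors were all higher in APEX1-OE by their means, and KLF4 was the one whose groups did not overlap. KLF4 (ENSG00000136826.14) encodes a factor of epithelial differentiation and cell cycle arrest, also known from the reprogramming of somatic cells, and lies at chr9:107484852-107490482 on the minus strand, with 5 exons in the canonical transcript. Its FPKM was 3.44, 4.80 and 3.82 in APEX1-OE and 2.46, 2.34 and 2.83 in Ctrl. All 3 APEX1-OE libraries were above all 3 Ctrl libraries. The means were 4.02 ± 0.702 and 2.54 ± 0.255 (SD, n = 3 each), a ratio of 1.58 (exact two-sided permutation test, p = 0.1). In counts KLF4 had 367, 698 and 472 against 246, 291 and 376. The edgeR log2 fold change was 0.64 (SE 0.219, unadjusted p = 0.0183, adjusted p = 1.00), between 0.53 and 0.72 with a library left out. The unadjusted p of KLF4 was above 0.05 without APEX1-OE 2 (0.0933), without Ctrl 1 (0.0720) and without Ctrl 2 (0.0803) in edgeR.

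In KLF6 and KLF10 the high libraries were those of cluster B in both groups. KLF6 (ENSG00000067082.14), a zinc finger factor regarded as a tumour suppressor, lies at chr10:3775996-3785281 on the minus strand. Its FPKM was 5.52, 12.45 and 12.06 in APEX1-OE and 5.00, 5.36 and 10.21 in Ctrl, so that the 3 libraries of cluster B were high and the 3 of cluster A low. The means of 10.01 ± 3.89 and 6.86 ± 2.91 (SD, n = 3 each) differed by less than the SD of APEX1-OE and by more than that of Ctrl (exact two-sided permutation test, p = 0.2). KLF10 (ENSG00000155090.14), a factor induced early by TGF-beta, had an FPKM of 15.15, 22.80 and 21.46 in APEX1-OE and 13.88, 14.31 and 19.21 in Ctrl. Here too each cluster B library was above each cluster A library. The means were 19.8 ± 4.09 and 15.8 ± 2.96 (SD, n = 3 each; exact two-sided permutation test, p = 0.2). The edgeR log2 fold changes were 0.52 (SE 0.335) for KLF6 and 0.30 (SE 0.196) for KLF10, with adjusted p = 1.00 for both. With a library left out KLF6 lay between 0.33, without Ctrl 1, and 0.85, without Ctrl 3. Its unadjusted p in edgeR was 0.163 with all libraries, 0.0243 without APEX1-OE 1 and 0.0295 without Ctrl 3.

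IER2, IER3 and NR4A1 were higher in cluster A than in cluster B by their means, with an overlap in NR4A1, where APEX1-OE 2 of cluster B (8.87 FPKM) was above Ctrl 2 of cluster A (8.76 FPKM). IER2 (ENSG00000160888.6) encodes a small nuclear protein of the early growth response and lies at chr19:13150411-13154911 on the plus strand. Its FPKM was 50.56, 37.68 and 29.90 in APEX1-OE and 40.14, 38.50 and 29.45 in Ctrl, with APEX1-OE 1 above the rest and the groups overlapping. The means were 39.4 ± 10.4 and 36.03 ± 5.76 (SD, n = 3 each; exact two-sided permutation test, p = 0.8). IER2 overlaps an antisense gene (ENSG00000267598) with up to 610 counts in a library, and since the use of strand in counting is not given, reads of the pair may not have been told apart.

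IER3 (ENSG00000137331.11), an early response gene linked to apoptosis and ERK signalling, lies at chr6:30743199-30744548 on the minus strand. Its FPKM was 94.82, 65.00 and 60.94 in APEX1-OE and 73.76, 74.11 and 56.72 in Ctrl. Ctrl 1 and Ctrl 2 fell inside the APEX1-OE range and Ctrl 3 below it (means 73.6 ± 18.5 and 68.2 ± 9.94, SD, n = 3 each; exact two-sided permutation test, p = 0.8). NR4A1 (ENSG00000123358.19), the nuclear receptor Nur77, lies at chr12:52022832-52059507 on the plus strand. Its FPKM was 12.17, 8.87 and 7.24 in APEX1-OE and 9.53, 8.76 and 6.45 in Ctrl, with overlapping groups (means 9.43 ± 2.51 and 8.25 ± 1.60, SD, n = 3 each; exact two-sided permutation test, p = 0.5). IER3 and NR4A1 overlap antisense genes with at most 192 and 130 counts in a library. The edgeR log2 fold changes were 0.13 (SE 0.301) for IER2, 0.12 (SE 0.292) for IER3 and 0.20 (SE 0.318) for NR4A1, all with an adjusted p of 1.00. Their direction rested on single libraries. Without APEX1-OE 1 the log2 fold changes became -0.22, -0.24 and -0.16, and without Ctrl 3 those of IER2 and IER3 became -0.031 and -0.041.

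MYC differed least between the groups. MYC (ENSG00000136997.14) is the proto-oncogene of growth and ribosome synthesis, on the plus strand of chromosome 8 from 127735434 to 127742951. Its FPKM was 63.34, 77.40 and 69.81 in APEX1-OE and 64.82, 67.17 and 65.08 in Ctrl. The Ctrl values fell inside the APEX1-OE range (means 70.2 ± 7.04 and 65.7 ± 1.29, SD, n = 3 each; exact two-sided permutation test, p = 0.4). The edgeR log2 fold change was 0.075 (SE 0.169), and its 95% interval of -0.31 to 0.46 covers values on both sides of 0. KLF10 lies on the minus strand of the same chromosome, from 102648784 to 102655725.

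**Figure D3:**
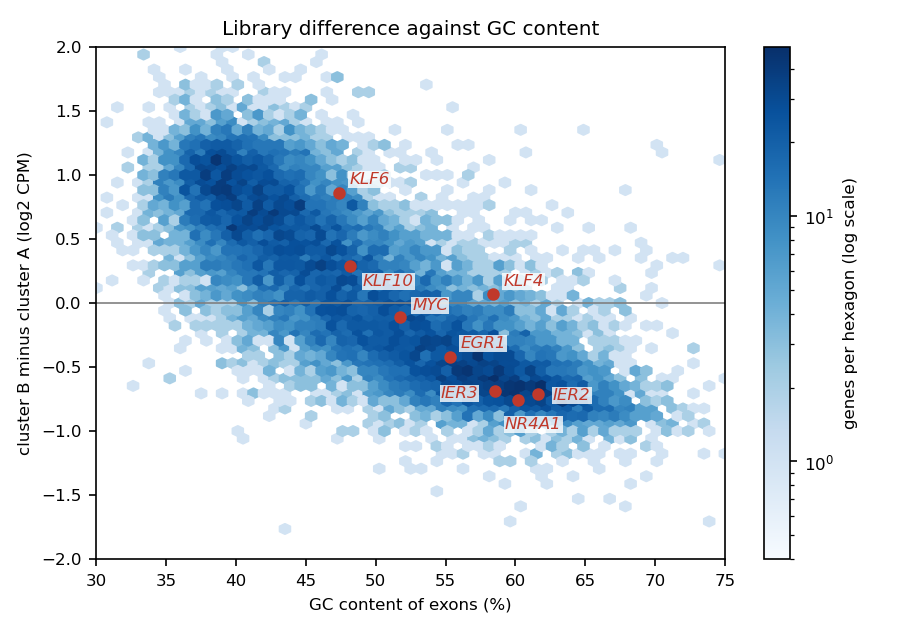
Mean difference of log2 CPM between cluster B and cluster A (y axis) against the GC content of the exons (x axis, %), for 16746 tested genes (blue hexagons, darker with more genes on a log scale) and the 8 members (red points). Axes end at 30 and 75% and at -2 and 2, which leaves 26 genes out, and the members lie from KLF6 (47.4% GC, 0.86) at the upper left to NR4A1 (60.2% GC, -0.76) and IER2 (61.6% GC, -0.71) at the lower right.

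The difference between the library clusters moved with base composition. Across the 16746 tested genes with annotation, the difference of cluster B minus cluster A in log2 CPM correlated with exon GC content at r = -0.783, a correlation across genes within the same 6 libraries. NR4A1 (60.2% GC), IER2 (61.6%) and IER3 (58.5%) differed by -0.76, -0.71 and -0.69. KLF6 (47.4%) and KLF10 (48.2%) differed by 0.86 and 0.29. KLF4, at 58.4% GC as rich as IER3, differed by 0.071, EGR1 (55.3%) by -0.42 and MYC (51.7%) by -0.11, beside a median GC content of 48.8% over all genes. For IER2, IER3, NR4A1, KLF6 and MYC the size of the difference between clusters was larger than the log2 fold change between APEX1-OE and Ctrl. The part of GC content in these values was not tested beyond the offset given next.

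Compared within their own cluster, most members were higher in APEX1-OE in every pair of libraries. Cluster A gives 2 pairs, which share APEX1-OE 1, and cluster B gives 2 pairs, which share Ctrl 3, so the pairs are not independent. The pairs of cluster A also differ along the axis between the clusters, on which APEX1-OE 1 stood apart, and the part of this in their values was not tested. The 8 genes are not independent either, since IER2, IER3 and NR4A1 correlated with each other at r = 0.98 to 0.99 over the 6 libraries. The one pair that was not higher in APEX1-OE was IER2 in APEX1-OE 3 against Ctrl 3 (-0.0049 in log2 CPM). All 4 pairs were higher for 7 members and for 17.8% of all tested genes. In cluster A the difference was 1.34 in log2 CPM for EGR1, 0.63 for KLF4, 0.52 for NR4A1, and 0.47 for both IER2 and IER3. In cluster B it was 0.69 for EGR1, 0.59 for KLF4, 0.31 for NR4A1, 0.18 for IER2 and 0.14 for IER3. KLF4, KLF6 (0.20 and 0.26) and KLF10 (0.22 and 0.20) were close between the clusters, EGR1 was larger in cluster A, and MYC was small in both (0.052 and 0.17). Whether a difference varied between the clusters was not tested. By the cluster means 8 of 8 members were higher in APEX1-OE in both clusters, as were 33.1% of all tested genes.

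**Figure D4:**
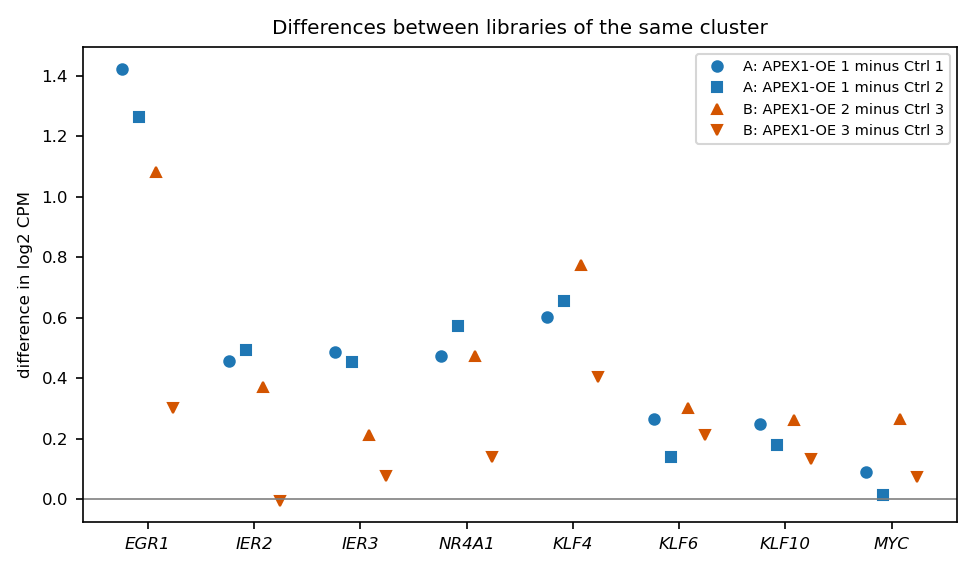
Difference in log2 CPM between each APEX1-OE library and each Ctrl library of the same cluster (y axis) for the 8 genes (x axis), with blue marks for the 2 pairs of cluster A and orange marks for the 2 pairs of cluster B. Of the 32 marks 31 lie above 0, and EGR1 spreads widest, from 0.30 to 1.42.

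With the library cluster as a term in edgeR, the standard errors became smaller and no member was called, at adjusted p-values from 0.0954 for EGR1 to 0.645 for MYC (edgeR, all 6 libraries). In this fit 0.0236% of all tested genes were called. At an unadjusted p under 0.05 and higher in APEX1-OE stood 7 of the 8 members, all but MYC, and 8.61% of all tested genes. The cluster term was read from the same values that it adjusts, so the unadjusted p-values of this fit are descriptive. APEX1-OE 1 stood apart on that axis within cluster A, and the part of this in the fit was not tested. The median log2 fold change of the members was 0.32, beside 0.0081 over all genes. EGR1 had a log2 fold change of 1.05 (SE 0.191, adjusted p = 0.0954 from edgeR), and KLF4 of 0.62 (SE 0.135, adjusted p = 0.219 from edgeR). NR4A1 stood at 0.42 (SE 0.112), IER2 at 0.34 (SE 0.109) and IER3 at 0.31 (SE 0.0964), each further from 0 than with the condition only. KLF6 at 0.23 (SE 0.0948) and KLF10 at 0.21 (SE 0.0905) were nearer to 0 than with the condition only. When GC content and length entered this fit as an offset, the count of members at an unadjusted p under 0.05 was again 7, beside 7.6% of all tested genes, the lowest adjusted p of a member was 0.106, for KLF4, and no member was called while 0.118% of all genes were. EGR1 then stood at 0.97, KLF4 at 0.50, NR4A1 at 0.29, and IER2 at 0.19 on the log2 scale. The count of 7 depended on single libraries. Keeping the cluster term, it was 2 without APEX1-OE 1 (1.28% of all genes), 5 without APEX1-OE 2, Ctrl 1, Ctrl 2 or Ctrl 3 (3.67 to 8.78%), and 8 without APEX1-OE 3 (17.1%). Without APEX1-OE 3 edgeR called 7 members and 16.6% of all genes, and without Ctrl 3 it called EGR1 among 13 genes. All 8 members kept a log2 fold change above 0 in each of these 6 fits. Without Ctrl 3 cluster B held no Ctrl library, so that fit compared only APEX1-OE 1 with Ctrl 1 and Ctrl 2 (EGR1 at 1.34). Without APEX1-OE 1 cluster A held no APEX1-OE library, so only APEX1-OE 2 and 3 were compared with Ctrl 3. Each of these comparisons rests on a single library of APEX1-OE or Ctrl and repeats differences within a cluster given above.

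Across the 6 libraries some members had like profiles. In log2 CPM, Pearson's r was 0.98 between IER2 and IER3, 0.99 between IER2 and NR4A1, and 0.98 between IER3 and NR4A1. It was 0.96 between KLF6 and KLF10, 0.84 between EGR1 and KLF4, 0.80 between KLF4 and KLF10, and -0.70 and -0.74 between KLF6 and IER2 and IER3. The values share the libraries and their clusters, so these are descriptions of 6 points. Many other genes had the same profile, since 325 genes correlated with IER2 above 0.99, 143 with NR4A1, 98 with IER3 and 74 with KLF6. The nearest single gene was INTS1 for IER2 (r = 0.9996), PXDC1 for NR4A1 (0.999), NCS1 for IER3 (0.998) and CEP135 for KLF6 (0.999), each over 6 libraries. EGR1 had only 1 such gene above 0.99, HRK (0.994), and KLF10 had 2, led by CEP152 (0.994). KLF4 and MYC had none above 0.99, the nearest being NEXN-AS1 (0.983) and TAS1R3 (0.987), both with a mean under 1 CPM.

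**Figure D5:**
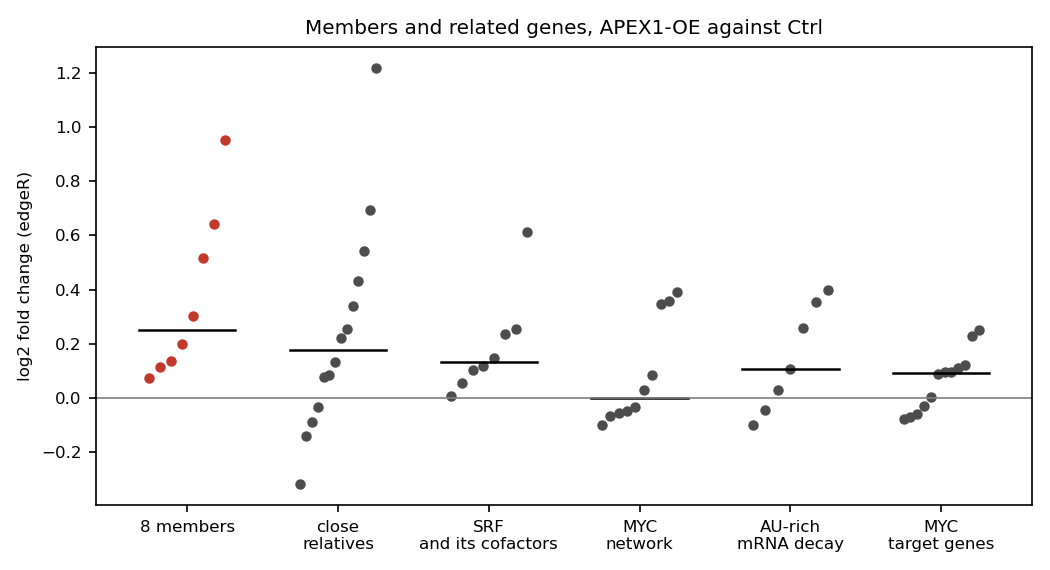
Log2 fold change in APEX1-OE against Ctrl from edgeR with the condition only (y axis) for the 8 members in red and for the tested genes of 5 related lists in grey (x axis), with a black line at each median. The medians are 0.25 for the members, 0.18 for close relatives, 0.13 for SRF and its cofactors, -0.0018 for the MYC network, 0.11 for AU-rich mRNA decay and 0.092 for MYC target genes. The list labelled SRF and its cofactors includes the EGR corepressors NAB1 and NAB2.

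Relatives, regulators and targets of the 8 genes were read in the same fit. With the condition only edgeR called APEX1 alone, and the 17 other fits listed under the processing called from 0 to 20 of all genes. Of 53 listed genes 51 were tested and none was called in either direction in any of these fits. At an unadjusted p under 0.05 stood 1 of them, EGR2, a close relative of EGR1 (log2 fold change 1.22, unadjusted p = 0.0331, adjusted p = 1.00 in edgeR). EGR2 is scarce here, with 26, 42 and 13 counts in APEX1-OE and 8, 8 and 17 in Ctrl, and the groups overlapped. With the library cluster as a term none was called either, and 11 of the 51 were higher and 3 lower at an unadjusted p under 0.05, as were 8.61% and 3.02% of all tested genes.

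Among the 16 close relatives, 14 were tested and 10 had a log2 fold change above 0. EGR3 and MYCN did not pass the filter on low counts. Of those with a mean FPKM of at least 1, KLF2, a factor best known from endothelial cells, had the largest log2 fold change, at 0.69 (SE 0.393) with the condition only and 1.00 (SE 0.193, adjusted p = 0.131) with the cluster term in edgeR. Its FPKM was 2.39, 1.78 and 1.23 in APEX1-OE and 1.28, 1.32 and 0.74 in Ctrl, and the groups overlapped, since APEX1-OE 3 lay below Ctrl 1 and Ctrl 2. The remaining relatives at that level, IER5, IER5L, NR4A2, KLF3, KLF5, KLF7, KLF9, KLF11 and KLF13, had log2 fold changes from -0.090 for IER5L to 0.54 for KLF7, and their groups overlapped.

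SRF, the factor that binds CArG boxes, stood at 12.7 ± 2.17 FPKM in APEX1-OE and 12.6 ± 1.27 FPKM in Ctrl (SD, n = 3 each), with a log2 fold change of 0.0087. The list of SRF and its cofactors also holds NAB1 and NAB2, which are corepressors of EGR proteins and not cofactors of SRF. All 8 genes of this list were above 0 with the condition only, with a median of 0.13, beside 57.5% of all tested genes. None of them reached an unadjusted p under 0.05 in edgeR. Under the cluster term 5 of the 8 were above 0, beside 51.6% of all tested genes. NAB2, a corepressor of EGR1 and itself an EGR1 target, had a log2 fold change of 0.054 (SE 0.290). The 10 genes of the MYC network, among them its partner MAX (-0.050), split into 5 above and 5 below 0, whereas with the cluster term 9 of the 10 were above 0, with a median of 0.10. Of the 12 MYC target genes 8 were above 0, with a median of 0.092, and 7 with the cluster term. The AU-rich mRNA decay list had 5 of 7 above 0, and 4 with the cluster term. In that list ZFP36L1 and ZFP36L2, which encode proteins that bind AU-rich elements and promote the decay of such mRNAs, had groups that did not overlap on the log2 CPM scale, as had 1.38% of all tested genes, and they are named after their values were seen. Their log2 fold changes were 0.40 (SE 0.187) and 0.35 (SE 0.193). The FPKM of ZFP36L1 was 28.24, 41.50 and 43.29 in APEX1-OE and 24.96, 25.92 and 33.34 in Ctrl, and that of ZFP36L2 was 6.94, 9.08 and 8.30 against 5.75, 5.81 and 7.26. On this scale APEX1-OE 1 lay below Ctrl 3 for both, and the groups overlapped.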

How the data were processed

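RNA of 6 A549 libraries, 3 APEX1-OE and 3 Ctrl, was sequenced from a stranded mRNA kit, and groups and replicates were taken from the sample labels. The authors trimmed reads with the FASTX-Toolkit 0.0.13, mapped them to GRCh38 with tophat2 and deposited raw counts of uniquely mapped reads per gene, with no normalization. The authors also deposited FPKM made from these reads. The submitters' processing notes list bcl2fastq, TopHat2 and edgeR, while the tool, annotation and strand setting of the counting step were not given in the sources used here.

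Low counts were removed with filterByExpr at its minimum count of 10 and minimum total of 15. TMM normalization was followed by the robust quasi-likelihood test of edgeR 4.0.16 in R 4.3.3, in which the condition was the single term, and p-values were adjusted by Benjamini-Hochberg over all tested genes at 0.05. CPM are counts scaled to the TMM library size. FPKM were tested with limma 3.58.1 on log2(FPKM + 1) for genes with a mean FPKM of at least 1, and per gene with exact two-sided permutation tests of the difference in means, 8 in all. The edgeR test with the condition only was checked on simulated counts with the same dispersion for all genes and no shift between libraries. A simulated shift between the clusters, with and without a term for it, was random by gene and not tied to GC content. The replicate block, the offset and the fits with a library left out were not simulated. Alternatives were DESeq2 1.42.0, limma-voom, other normalizations and filters, a pseudocount of 0.1, each library left out, the replicate number as a block, the library cluster as a term, and an offset per gene and library from splines (5 degrees of freedom) on GC content and length. GENCODE release 44, which held 97.0% of the gene identifiers with versions left out, gave coordinates, GC content and length (98.7% of tested genes). Promoter sequences are from RefSeq.

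The members and the related lists were chosen with earlier results of these data known. The genes named by rule are the 8 members, close relatives with a mean FPKM of at least 1, the gene most correlated with each member, and APEX1. Related genes past the adjusted threshold would have been named too, and none passed it. Named outside this rule are EGR2, EGR3, MYCN, SRF, MAX, NAB1, NAB2, ZFP36, ZFP36L1 and ZFP36L2. The cell type markers come from lists of their own. Same-numbered replicates did not deviate together in all pairs (correlations 0.607, -0.521 and 0.700), so the numbers were not taken to pair the libraries. Libraries of 28131955 to 41009197 counts give a counting error of 6.93% at the lowest member count, 208 for EGR1.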

Additional observations from a re-analysis of the deposited data

How the results depend on the processing

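The count of 0 called members was the same under 17 alternatives with the adjusted threshold. With the condition only and APEX1-OE 2, APEX1-OE 3, Ctrl 1 or Ctrl 2 left out, however, edgeR called no gene. APEX1 itself had adjusted p-values from 0.0674 to 0.210 in these edgeR fits, so a count of 0 there says little about the members. The other alternatives called from 1 to 20 genes in all. With the library cluster as a term and a library left out, the count of called members was 7 without APEX1-OE 3, beside 16.6% of all genes. It was 1, EGR1, without Ctrl 3, beside 0.0758% of all genes. That fit without Ctrl 3 compared only APEX1-OE 1 with Ctrl 1 and Ctrl 2. With the condition only and an unadjusted p under 0.05 the count was 2, EGR1 and KLF4, beside 118 of 16971 genes tested, in either direction. This count was 0 without Ctrl 1 (81 of 17400 genes), and 1 without APEX1-OE 2 (66 of 17227) or Ctrl 2 (73 of 17409). It was 3, with KLF6 as the third, without APEX1-OE 1 (1324 of 17409) or Ctrl 3 (595 of 17150). It was also 3, with KLF6, without the filter on low counts (628 of 32192) and with the replicate block (561 of 16971). It was 4, with KLF10 too, under the offset for GC content and length (510 of 16971). For the related genes the count of 0 was the same under 17 alternatives, including those that called no gene at all, and rose to 1, EGR2, with an unadjusted p. The log2 fold changes of the members kept their direction and their side of the threshold in 131 of 136 alternative fits. The 5 that reversed were IER2 at -0.22, IER3 at -0.24 and NR4A1 at -0.16 without APEX1-OE 1, and IER2 at -0.031 and IER3 at -0.041 without Ctrl 3. With a library left out the highest values of IER2, IER3 and NR4A1 were 0.34, 0.28 and 0.40, each without APEX1-OE 3. On log2(FPKM + 1), 59 of 64 kept their direction, and the 5 that reversed were IER2 at -0.087, IER3 at -0.10 and NR4A1 at -0.021 without APEX1-OE 1, and IER2 at -0.029 and IER3 at -0.034 without Ctrl 3, beside highest values of 0.28, 0.21 and 0.32 for IER2, IER3 and NR4A1. Without APEX1-OE 1 the APEX1-OE group holds cluster B only, and without Ctrl 3 the Ctrl group holds cluster A only, and the cause was not tested. With the library cluster as a term, 7 members were higher at an unadjusted p under 0.05, beside 8.61% of all tested genes. With a library left out this count lay between 2 (1.28% of all genes) and 8 (17.1%). This check was chosen after seeing the data.

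With the replicate block in edgeR 0 members were called and EGR1 stood at 0.88 (adjusted p = 0.852), while 2 genes were called in all. The block changed no call of a member. With the replicate block and the offset for GC content and length together the count of members was again 0.

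With 3 libraries a group the exact permutation test cannot pass 0.05.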

Other observations

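ZFP36, which encodes the AU-rich element binding protein tristetraprolin and is itself an early response gene, was on the list of mRNA decay factors and is named here after its values were seen. Its FPKM was 30.74, 23.78 and 22.40 in APEX1-OE and 23.65, 22.13 and 18.48 in Ctrl, with overlapping groups. Its log2 fold change was 0.26 (SE 0.260) with the condition only and 0.43 (SE 0.0975, adjusted p = 0.285) with the library cluster as a term in edgeR. Within APEX1-OE, the library with the highest APEX1 FPKM (768, replicate 3) had the lowest EGR1 FPKM (2.66), and that with the lowest APEX1 FPKM (618, replicate 1) had the highest EGR1 FPKM (4.81). On the CPM scale the order of APEX1 was another one (1271, 1184 and 1299 in replicates 1, 2 and 3, beside 20.8, 16.3 and 9.46 for EGR1), and with 3 libraries the relation was not tested.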
